A study of Mus musculus with 4 samples.

Results

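Parietal cells, the acid-secreting cells of the gastric corpus, were described in 3 single-cell RNA libraries: untreated mice, mice 3 days after L635, and mice 3 days after L635 that also received AREG. A barcode was kept as a cell with at least 500 unique molecular identifiers (UMIs, counted RNA molecules), at least 200 genes and at most 50% of UMIs from mitochondrially encoded genes. It was called parietal if the summed UMIs of Atp4a and Atp4b, the subunits of the gastric proton pump, were at least 50 per 10000 UMIs of the cell, a value called the Atp4 score here. This gave 10223 parietal cells of 34806 cells in the 3 libraries and of 38732 cells in the whole series. All groups were wild-type C57BL6/J mice aged 6 to 7 weeks. The untreated mice are a PBS control, and the other groups received L635, a parietal cell toxicant, as a single oral dose of 350 mg/kg. AREG is amphiregulin, a ligand of the EGF receptor. The labels give neither its dose, route and timing nor the number of mice behind each library. Since every group consists of 1 library, differences cannot be set against replicate spread, and neither tests nor p-values are given. Intervals are 95% intervals that cover counting error only.

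As background, a parietal cell holds the proton pump H+/K+-ATPase in membranes that fuse with a secretory canaliculus when histamine, acetylcholine or gastrin stimulates the cell. The pump exchanges protons for potassium, so it needs apical potassium channels (KCNQ1 with its partner KCNE2, and the KCNJ15 and KCNJ16 channels) and a path for chloride, while SLC4A2 and the SLC26A7 exchanger return base to the blood side. The pump consumes much ATP, and the cells are packed with mitochondria. ESRRG, an orphan nuclear receptor, is known as a regulator of their acid secretion and energy genes. Parietal cells are also a source of EGF-family and hedgehog ligands for neighbouring cells.

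Parietal cells made up a smaller share of the day 3 libraries than of the untreated library, and nearly equal shares of both day 3 libraries. They were 4470 of 13897 cells in the untreated library, or 32.2% (Clopper-Pearson interval 31.4 to 32.9%). They were 2174 of 7986 cells at day 3, or 27.2% (26.2 to 28.2%), and 3579 of 12923 cells at day 3 with AREG, or 27.7% (26.9 to 28.5%). For reference, the same rule kept 298 of 3926 cells in the library of day 1 after L635, or 7.59%. The untreated share was the highest under each of these limits: with no mitochondrial limit the shares stood at 34.7%, 27.9% and 28.3%, and with a limit of 20% at 24.3%, 21.4% and 21.0%. The limit removed 544, 83 and 127 barcodes that met the Atp4 rule, which were 10.8%, 3.68% and 3.43% of all such barcodes.

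The parietal cells of the day 3 libraries gave more RNA than those of the untreated library. The median parietal cell had 1829.5 UMIs and 880 genes in the untreated library, 3716.5 UMIs and 1556.5 genes at day 3, and 3348 UMIs and 1398 genes with AREG. Medians of the other cells ran the other way in UMIs, at 2998, 2841.5 and 2505, but not in genes, at 883, 1100.5 and 996. The summed depth of parietal cells was 12788384, 15962725 and 18654744 UMIs, which were 20.7%, 37.9% and 35.9% of all UMIs in cells. Median mitochondrial shares of parietal cells were 14.7%, 11.5% and 14.3%, against 3.58%, 1.80% and 3.77% in other cells. No barcode was parietal in more than 1 of the libraries, and each pair of libraries shared 1 to 3 cell barcodes of any kind.

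The cells were chosen by their Atp4a and Atp4b UMIs, so the values of these genes are a description. The median Atp4 score was 297 in untreated parietal cells, 235 at day 3 and 239 with AREG, and 81.5%, 61.8% and 65.0% of them scored at least 200. The plot of the score over all cells shows few untreated cells between the bulk near 0 and the parietal mode. In both day 3 libraries that mode lies lower and the dip before it is shallower. In the untreated library the emptiest bin on that stretch was 80 to 100, with 75 cells, above the threshold of 50, and the fullest parietal bin, from 300, held 454. At day 3 the emptiest bin, from 120, held 85 cells and the fullest, from 280, held 188. With AREG the emptiest, from 60, held 109 and the fullest, from 260, held 338. Just outside the threshold, at scores of 40 to 50, lay 72, 72 and 111 cells in the order untreated, day 3 and AREG, and just inside, at 50 to 60, lay 75, 55 and 90. Cells on both sides of it were shallow, with medians of 871.5 to 949 UMIs outside and 943 to 982 inside. Their summed Kcne2, Tnni3 and Esrrg level was 326, 350 and 300 CPM outside and 547, 448 and 345 CPM inside, where CPM is counts per 1000000 UMIs, both summed over the cells named. Free RNA, measured in barcodes with fewer than 50 UMIs, had an Atp4 score of 76.7, 101 and 99.1, so free RNA alone exceeded the threshold; its part in the cells near the threshold was not tested.

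**Figure D1:**
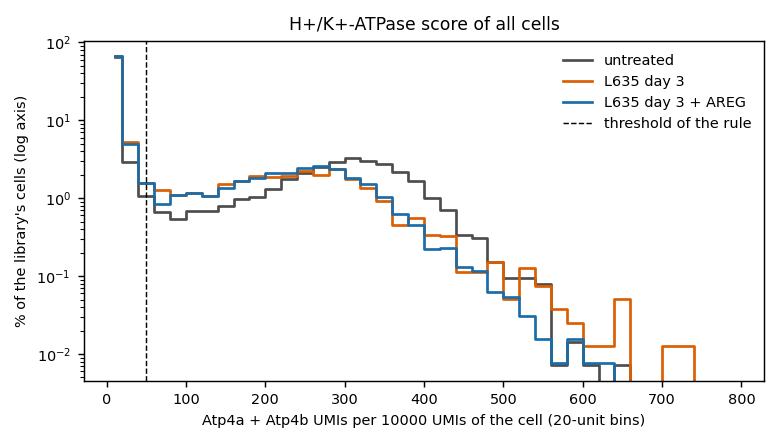
Distribution of the Atp4 score (Atp4a plus Atp4b UMIs per 10000 UMIs of a cell, in bins of 20) over all cells of the untreated, L635 day 3 and L635 day 3 + AREG libraries, as a percentage of each library's cells on a log axis; the dashed line marks the threshold of 50. The parietal mode of the untreated library, with a median of 297 among parietal cells, lies above those of both day 3 libraries, at 235 and 239.

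Genes that the rule did not use were also far higher in these cells than in the others, in each library. The list of parietal markers was Atp4a, Atp4b, Kcne2, Tnni3 and Esrrg. Tnni3, cardiac troponin I, which parietal cells also express, was at 1338 CPM in untreated parietal cells, 1236 at day 3 and 1142 with AREG, and at 15.9, 18.0 and 19.2 CPM in the other cells. Kcne2 was at 390, 634 and 550 CPM against 8.16, 19.0 and 17.0 in other cells. Esrrg was at 219, 400 and 425 CPM against 8.29, 16.6 and 17.4. After each cell was thinned to 500 UMIs, 59.0% of untreated, 59.7% of day 3 and 58.0% of AREG parietal cells had at least 1 UMI of Kcne2, Tnni3 or Esrrg, against 2.75%, 3.60% and 3.72% of other cells. The unthinned shares were 87.8%, 88.2% and 89.1% against 13.4%, 17.1% and 15.3%.

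The 15 genes with the highest ratio of parietal over other cells (of CPM plus 1), taken as the smallest ratio over the 3 libraries, were Tnni3, Atp4b, Smim38, Ckb, Tpcn2, Atp4a, Igfbp2, Ak1, Cox7a1, Kcne2, Slc26a9, Pdlim4, Fabp12, Apoa1 and Esrrg. Their ratios are a description, since the cells were split by Atp4a and Atp4b. They hold energy buffering enzymes (Ckb, brain-type creatine kinase, and Ak1, adenylate kinase), a muscle-type subunit of cytochrome oxidase (Cox7a1) and a lysosomal cation channel (Tpcn2). Tpcn2 was at 1422 CPM in untreated parietal cells, 1536 at day 3 and 1304 with AREG, with ratios of 71.2, 42.5 and 42.7 over other cells. Ckb was at 2191, 1871 and 1989 CPM. Of these 15 genes, Apoa1, Igfbp2 and Cox7a1 differed by at least 2-fold between day 3 and untreated parietal cells, and all of them were lower at day 3.

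Markers of immune cells, fibroblasts, smooth muscle, forestomach squamous cells and red cells summed to at most 6.20 CPM each in parietal cells of any library. RNA of the neighbouring epithelial classes was present. The 6 pit cell markers summed to 37363 CPM in untreated, 18291 at day 3 and 15500 with AREG, against 230998, 266632 and 224633 CPM in the other cells. Part of this is Psca, which was higher in parietal than in other cells, at 15129, 8036 and 7495 CPM against 7056, 6889 and 5195. The 4 neck cell markers summed to 4639, 1518 and 1024 CPM against 15351, 6050 and 9221 in other cells. The 6 chief cell markers summed to 13892, 17325 and 20392 CPM against 111054, 54106 and 41934 in other cells. By UMIs of pit, neck or chief markers exceeding those of Atp4a and Atp4b, 37.9%, 33.3% and 32.2% of parietal cells stood out. Pit markers, Psca among them, accounted for 1559, 470 and 679 of these cells, chief markers for 446, 380 and 698 and neck markers for 219, 52 and 48, where a cell can count more than once. No doublet caller was used here, and the part of mixed droplets in the results was not tested; values without these cells are given where they change a result.

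Most measured genes of acid secretion lay less than 2-fold from their untreated level at day 3, and a few lay far apart. The list of 19 pump, channel and transporter genes holds Atp4a and Atp4b. The cells were chosen by these genes, so their levels are partly fixed by that choice. Of the 19 genes, 17 were measured, meaning at least 20 CPM in parietal cells of any library. Of these, 0 were at least 2-fold higher and 2, Kcnj16 and Slc26a7, at least 2-fold lower at day 3, and their median log2 ratio was -0.01, where all 5335 measured genes had a median of 0.18. Log2 ratios are of CPM plus 1, which understates differences of low genes. Over all measured genes, 186 (3.49%) were at least 2-fold higher and 122 (2.29%) at least 2-fold lower at day 3 than in untreated parietal cells. With every ratio centred on the median these became 121 and 187, so the balance of higher and lower genes depends on the scaling. With equal weight for each cell they became 417 and 165.

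The pump itself was at 13527 CPM (Atp4a, catalytic subunit) in untreated parietal cells, 10901 at day 3 and 12330 with AREG, and at 13085, 12933 and 11969 CPM for Atp4b. These levels carry the choice of cells. Of the apical potassium channels, Kcnq1 stood at 312 CPM in untreated, 363 at day 3 and 372 with AREG, and Kcnj15 at 257, 255 and 242. Kcne2, the KCNQ1 partner of parietal cells, was higher at day 3, with a log2 ratio of 0.70 (counting interval 0.65 to 0.75) that stayed between 0.52 and 0.71 under 14 other settings. Kcne1, the KCNQ1 partner best known from heart and inner ear, went the other way; it is outside that list of 19 genes and was named by its size of difference. It was at 104 CPM (98.8 to 110) in untreated parietal cells, 7.83 (6.52 to 9.33) at day 3 and 5.25 with AREG, a log2 ratio of -3.58 for day 3 over untreated. In the other cells Kcne1 was at 1.25, 0.230 and 0.210 CPM. Both day 3 libraries therefore had Kcne1 far below the untreated one while Kcne2 lay above it.

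Kcnj16, an inward rectifier potassium channel, was at 485 CPM in untreated, 215 at day 3 and 165 with AREG, a log2 ratio of -1.17 for day 3 over untreated. Slc26a7, the chloride-bicarbonate exchanger of the basolateral side, was at 26.7, 4.07 and 4.02 CPM, a log2 ratio of -2.45. Its relative Slc26a9, an apical chloride channel and transporter, was at 252, 183 and 182 CPM. Slc4a2, the main basolateral anion exchanger of these cells, was at 618, 579 and 554 CPM. Clic6, a chloride channel family protein, was at 1434, 1213 and 1261 CPM, and the potassium-chloride cotransporter Slc12a7 at 200, 103 and 102. Aqp4, a water channel, was at 30.3, 55.1 and 46.7 CPM, but its log2 ratio of 0.84 at day 3 was 0.13 when every cell had equal weight. The plot of acid secretion genes shows the untreated points of Kcne1, Slc26a7 and Kcnj16 well to the right of both day 3 points.

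**Figure D2:**
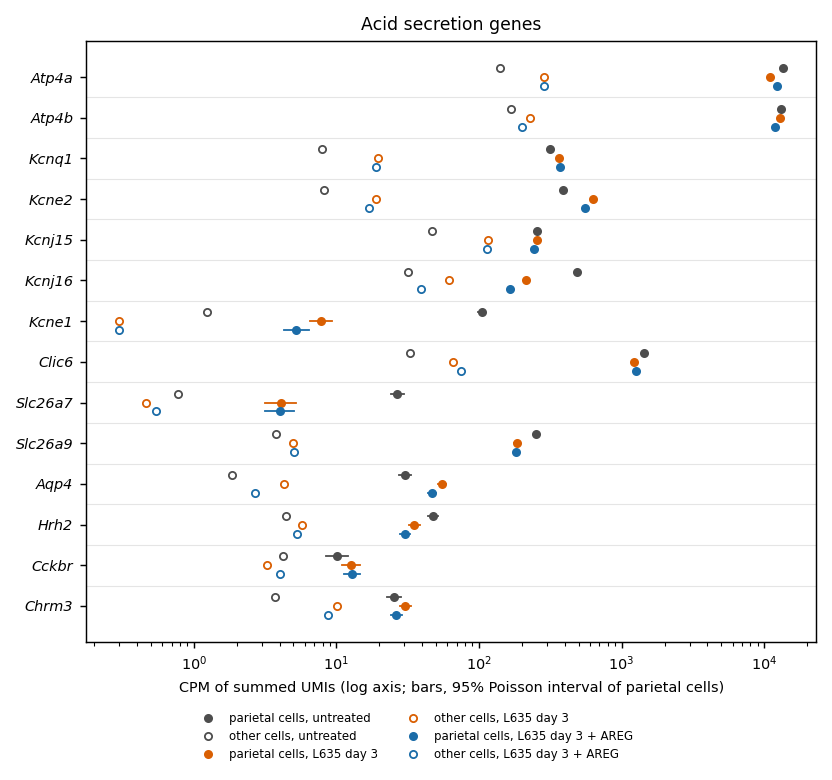
Levels of 14 acid secretion genes in CPM of summed UMIs, on a log axis, in parietal cells (filled points, with 95% Poisson intervals) and other cells (open points) of the 3 libraries; values under 0.3 CPM are drawn at 0.3. Parietal cells lay above the other cells for each of these genes, and Kcne1, at 104, 7.83 and 5.25 CPM, was furthest apart between the untreated and the day 3 libraries.

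Receptors that stimulate secretion lay less than 2-fold from their untreated level. Hrh2, the histamine H2 receptor, was at 47.3 CPM in untreated parietal cells, 35.3 at day 3 and 30.4 with AREG. Chrm3, the muscarinic receptor, was at 25.5, 30.5 and 26.3 CPM, and Cckbr, the gastrin receptor, was below the level for measured genes at 10.2, 12.7 and 12.9 CPM. None of the 10 measured genes of the list of receptors and their signalling was 2-fold apart, with a median log2 ratio of 0.25. None of 14 measured genes of tubulovesicle traffic was either, with a median of 0.17. All measured genes had a median of 0.18, with 3.49% at least 2-fold higher and 2.29% at least 2-fold lower. A count of 0 therefore does not set these short lists apart. Ezr, encoding ezrin of the canaliculus, was at 962, 1047 and 1096 CPM.

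Parietal cells at day 3 had less RNA of Apoa1, Hamp2, Cd36, Lpl and several other genes than untreated ones. The 10 genes furthest below untreated by the naming rule (at least 50 CPM in parietal cells of the higher library and no lower there than in its other cells) were Hamp2, Kcne1, Apoa1, Myo3a, Ifi27l2b, Lbh, Mia, Rnase1, Gpr155 and Cd36. Apoa1, encoding the main protein of high-density lipoprotein, was at 14730 CPM (14663 to 14796) in untreated parietal cells, 1572 (1552 to 1591) at day 3 and 1185 (1170 to 1201) with AREG. Its log2 ratio for day 3 over untreated was -3.23 (-3.25 to -3.21), or 9.37-fold lower. Its UMIs in untreated parietal cells outnumbered those of the pump subunit Atp4a. In the other cells Apoa1 was at 168, 27.03 and 42.6 CPM.

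Hamp2, a paralog of the iron hormone hepcidin, was at 1657 CPM (1635 to 1680) in untreated, 114 (109 to 120) at day 3 and 92.7 (88.4 to 97.2) with AREG, a log2 ratio of -3.85 (-3.93 to -3.79). Hamp, the closely related hepcidin gene, whose reads may be split with Hamp2, was at 7.27, 5.51 and 2.57 CPM. Rnase1, a secreted ribonuclease, was at 113, 19.98 and 16.7 CPM. Cd36, a fatty acid uptake receptor, was at 182, 42.2 and 41.0 CPM, and Lpl, lipoprotein lipase, at 755, 199 and 191 CPM with a log2 ratio of -1.92. Apoa4, an apolipoprotein, was at 366, 98.9 and 88.9 CPM. Fabp3, a heart-type fatty acid carrier, was at 1369, 594 and 615 CPM, a log2 ratio of -1.20. Of these genes, only Hamp was below the level for measured genes. The list of lipid uptake, apolipoproteins and storage, put together after values had been seen, was split. Of 11 measured members 5 (Apoa1, Apoa4, Lpl, Cd36 and Fabp3) were at least 2-fold lower, where 2.29% of all measured genes were. Above 0 lay 6, and 2 of those, Angptl8 and Dgat2, were at least 2-fold higher, where 3.49% of all measured genes were. The median of the list was 0.28, against 0.18 for all measured genes. Dgat2, an enzyme of triglyceride synthesis, was at 16.3, 59.5 and 57.5 CPM.

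Of the ligands, Egf was at 25.2 CPM in untreated parietal cells, 2.44 at day 3 and 1.66 with AREG, a log2 ratio of -2.93 for day 3. Vegfb was at 211, 159 and 161 CPM, Vegfa at 56.8, 68.9 and 70.3, and Pthlh, parathyroid hormone-like hormone, at 31.3, 21.5 and 16.6. The other 9 listed ligands, among them Tgfa, Hbegf, Areg, Btc, Shh and Ihh, were not at 20 CPM in any library. Areg itself was at 2.42, 0.626 and 0.643 CPM. Of the 4 measured ligands 3 lay lower at day 3 and the median log2 ratio was -0.46, against 0.18 for all measured genes.

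Contractile, creatine and fatty acid binding genes lay lower as a list, with a median log2 ratio of -0.73 where all measured genes had 0.18. All 7 measured members had a negative log2 ratio at day 3. Of them 1 was past 2-fold, where 2.29% of all measured genes were at least 2-fold lower. Tpm1, tropomyosin, was at 452, 228 and 236 CPM, Ldhb, the lactate dehydrogenase subunit of oxidative tissues, at 1580, 954 and 962, and Ckmt1, mitochondrial creatine kinase, at 684, 368 and 349. Tnni3 belongs to this list and had a log2 ratio of -0.11, which stood at -1.05 among cells of 1500 to 6000 UMIs, a range chosen after the data were seen so that depths were alike. Autophagy genes also tended lower, with 11 of 14 measured members below 0 and a median of -0.25, against 0.18 for all measured genes. Map1lc3a, an LC3 autophagosome protein, was at 166, 59.2 and 68.8 CPM. In the lysosome and V-ATPase list 12 of 17 were below 0, with a median of -0.30 against the same 0.18. Ctsd, a lysosomal protease, was at 695, 457 and 430 CPM.

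**Figure D3:**
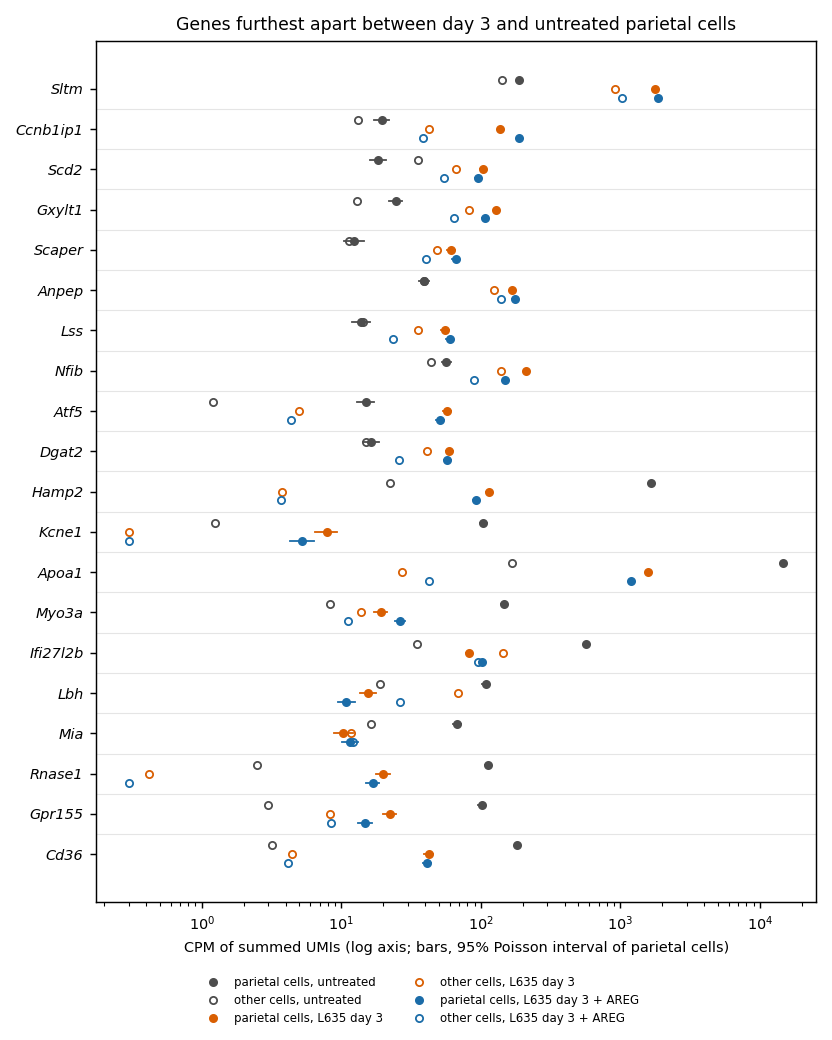
Levels in CPM of summed UMIs, on a log axis, of the 10 genes with the highest and the 10 with the lowest log2 ratio of day 3 over untreated parietal cells under the naming rule, in parietal cells (filled points, with 95% Poisson intervals) and other cells (open points) of the 3 libraries; values under 0.3 CPM are drawn at 0.3. Sltm, at 189, 1757 and 1850 CPM in parietal cells, was higher at day 3 in other cells too, while Apoa1 and Hamp2 were far lower in other than in parietal cells of all 3 libraries.

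On the other side, parietal cells at day 3 had more RNA of Sltm, Ccnb1ip1, Scd2, Gxylt1, Scaper, Anpep, Lss, Nfib, Atf5 and Dgat2, the 10 highest by the naming rule. Several of these were higher in the other cells of the day 3 libraries too. Sltm, an RNA-binding protein of the nucleus, was at 189 CPM in untreated parietal cells, 1757 at day 3 and 1850 with AREG, and at 142, 916 and 1025 CPM in the other cells. In free RNA Sltm was also higher at day 3, at 232, 1317 and 1619 CPM, and the part of free RNA in its parietal values was not tested. Gxylt1 was at 24.5, 129 and 107 CPM in parietal and 12.9, 82.3 and 64.3 in other cells, and Anpep, an aminopeptidase, at 39.1, 168 and 174 against 38.9, 124 and 139. Atf5, a stress-responsive transcription factor, was low in other cells, at 14.9, 57.4 and 50.9 CPM against 1.21, 4.98 and 4.36, a log2 ratio of 1.87 (1.72 to 2.18). Ratios in intervals are of counts without the added CPM and so can sit slightly off the value they follow.

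Esrrg was higher at day 3, at 219, 400 and 425 CPM, a log2 ratio of 0.87 (0.81 to 0.93). Its relative Esrrb was at 15.3, 4.89 and 3.43 CPM, in the opposite direction and below the level for measured genes, and Esrra was at 105, 139 and 145. Gata4 and Gata6, transcription factors of gastric epithelium, were at 118, 188 and 176 and at 54.7, 91.5 and 105 CPM. Of the 10 measured genes in that list, 8 lay above 0 and none was past 2-fold. Their median log2 ratio was 0.43, against 0.18 for all measured genes. Ppargc1a, a coactivator of mitochondrial genes, was at 26.1, 23.8 and 21.7 CPM. Nuclear genes of oxidative phosphorylation had a median of -0.13, with 0 of 38 measured members past 2-fold. Of all measured genes 3.49% were at least 2-fold higher and 2.29% at least 2-fold lower. Genes of the TCA cycle had a median of 0.20, close to the 0.18 of all measured genes. The median mitochondrially encoded gene was at -0.29 for day 3 over untreated and 0.20 for AREG over day 3, but among cells of 1500 to 6000 UMIs these medians were 0.38 and -0.063. These transcripts also set the mitochondrial share on which barcodes were filtered.

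Of 4 measured iron genes 2 lay above 0 and 2 below at day 3. Tfrc, the transferrin receptor that imports iron, was at 146 CPM in untreated parietal cells, 368 at day 3 and 435 with AREG, a log2 ratio of 1.33 (1.26 to 1.41) for day 3. Fth1, the ferritin heavy chain that stores iron, was at 5429, 2994 and 2923 CPM, and Ftl1, the light chain, at 1478, 1066 and 1152. Ireb2, an iron-sensing regulator of such transcripts, was at 21.97, 28.6 and 27.8 CPM. Other cells had Tfrc at 26.3, 30.3 and 70.3 CPM. Among targets of NRF2 and glutathione genes, 13 of 14 measured members lay above 0 at day 3. Their median was 0.53, against 0.18 for all measured genes. Past 2-fold were 3, Akr1b8, Gstm1 and Srxn1, where 3.49% of all measured genes were at least 2-fold higher. Akr1b8, an aldo-keto reductase, was at 18.7, 88.4 and 59.8 CPM, and Gstm1, a glutathione transferase, at 225, 587 and 514 CPM. Both were higher in other cells than in parietal cells of every library. Cat, catalase, was the member below 0, at 266, 172 and 179 CPM.

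Genes of sterol synthesis lay higher at day 3, in a list put together after the values of Idi1, Lss and Scd2 had been seen, so the list is no independent evidence of its direction. Of 24 genes of cholesterol synthesis and uptake 23 were measured, 22 lay above 0, 7 were at least 2-fold higher and 0 at least 2-fold lower, where 3.49% and 2.29% of all measured genes were, with a median log2 ratio of 0.85 against 0.18 for all. Idi1, isopentenyl diphosphate isomerase, was at 56.4 CPM in untreated parietal cells, 183 at day 3 and 224 with AREG. Lss, lanosterol synthase, was at 13.8, 55.8 and 59.98 CPM, and Cyp51, a sterol demethylase, at 41.8, 114 and 115. In other cells the summed level of the list was 1117, 1766 and 1413 CPM, against 1194, 2171 and 2355 in parietal cells. Of 10 genes of fatty acid synthesis, a list also put together after values had been seen, 6 were measured. Scd2, a stearoyl-CoA desaturase, was at 18.4, 103 and 94.8 CPM.

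The list of amino acid and one-carbon synthesis was likewise made after Asns and Atf5 had been seen. It also holds the transcription factors Atf4 and Atf5 and the transporter genes Slc3a2 and Slc38a2. Of its 18 genes 12 were measured, 11 of them above 0 and 6 past 2-fold higher, where 3.49% of all measured genes were, with a median of 1.03. Asns and Atf5 are among the 6, so this list too is no independent evidence of its direction. Asns, asparagine synthetase, was at 83.4, 231 and 246 CPM, and at 89.1, 94.8 and 109 in other cells. Mthfd2, a mitochondrial folate enzyme, was at 11.2, 38.8 and 37.0 CPM, Aldh18a1, of proline synthesis, at 23.1, 49.8 and 47.7, and Atf4, the transcription factor of the integrated stress response, at 78.5, 157 and 169. Ddit3, Nupr1 and Ppp1r15a, other genes of that response, did not share the direction, at 26.4, 18.6 and 28.7, at 27.2, 12.5 and 11.1 and at 27.5, 23.5 and 25.8 CPM. The plot of gene lists shows these synthesis lists to the right of the median of all genes in both comparisons with untreated cells.

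**Figure D4:**
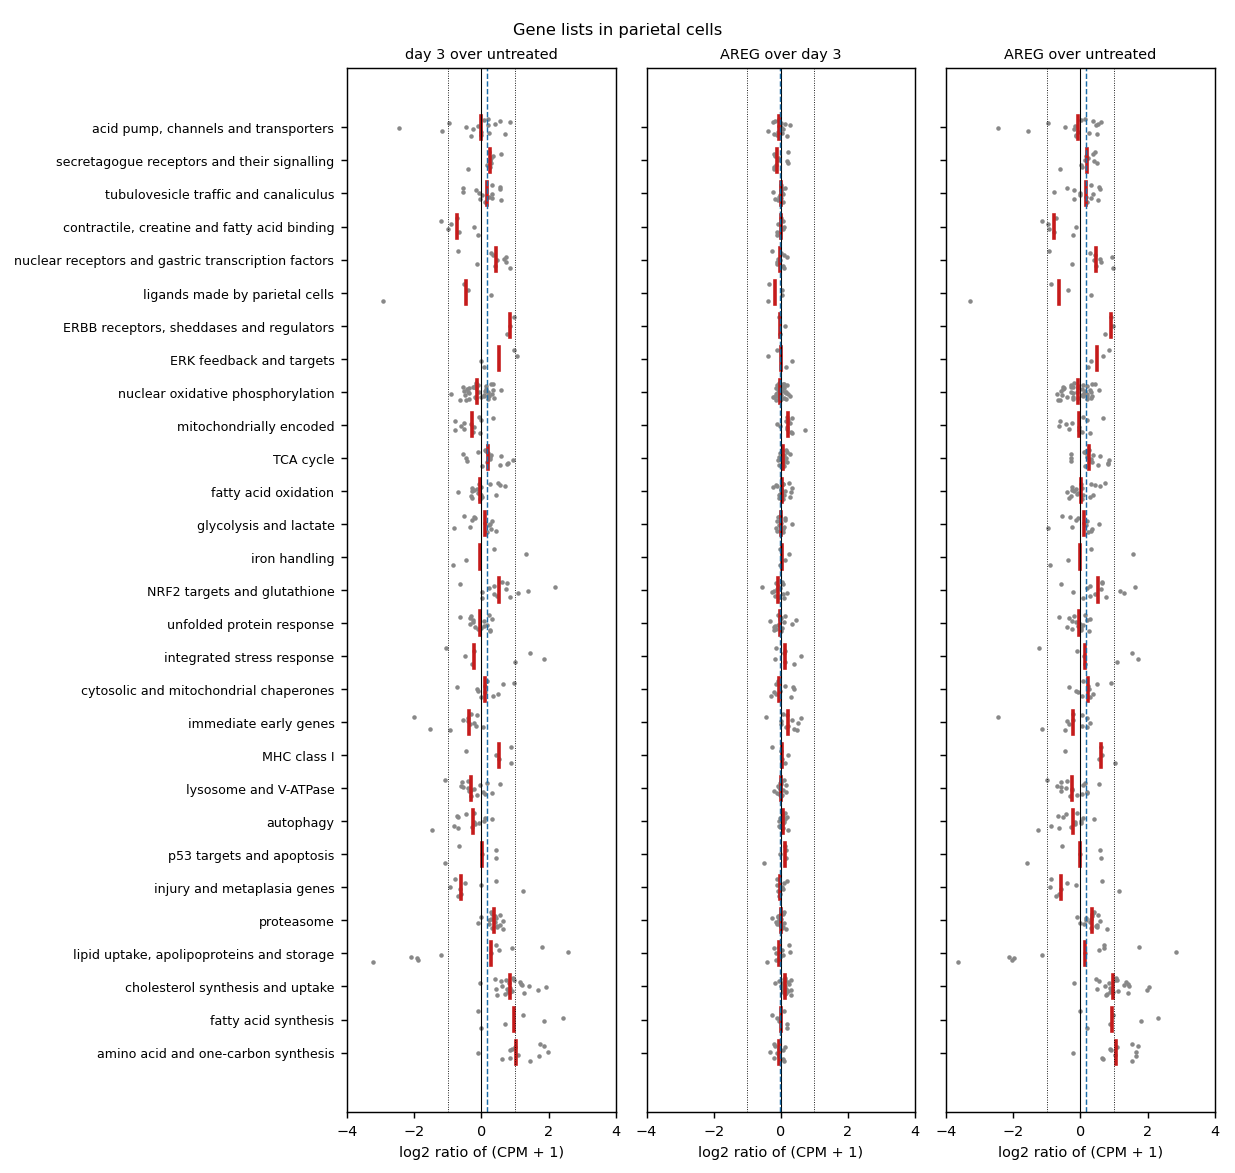
Log2 ratios of CPM plus 1 between parietal cells of each pair of libraries for the measured genes (grey points) of each gene list, with the list's median (red bar), the median of all measured genes (blue dashed line) and the 2-fold limits (dotted lines). The amino acid list, with a median of 1.03, lies furthest to the right for day 3 over untreated, followed by fatty acid synthesis with 0.97 and cholesterol synthesis with 0.85. These synthesis lists were put together after values had been seen, so their place in this order is no independent evidence. No list median is 2-fold apart for AREG over day 3.

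The 250 bases before the transcript start were read for members of those lists, because most members of these lists lay higher. Promoters were from RefSeq (GRCm38.p6, an older build than that of the deposited counts), 17 of 24 cholesterol genes and 14 of 18 amino acid genes had one, and both strands were searched. The sterol regulatory motif TCACNCCAC was in 1 of 17 cholesterol genes, Hmgcs1, and in 1.22% of all 27025 genes with a promoter entry. The CEBP-ATF motif TGATGNAAN was in 2 of 14 amino acid genes, Asns and Pycr1, and in 3.89% of all genes. The ESRR motif TNAAGGTCA was in 0 of the 13 parietal marker genes, of 15, that had a promoter entry, and in 1.30% of all genes. A gene counts when any of its promoter entries holds the motif. Over the 32851 promoters of this length the shares were 1.05%, 3.44% and 1.14%. A match describes letters in this window and is not a binding site. The promoters of Asns, at chr6:7693210-7693459 on the minus strand, and of Hmgcs1, at chr13:119690101-119690350 on the plus strand, are shown as the members with a match that were measured, 5′ to 3′ in the direction of the gene, with the matched motif in capitals.
Asns: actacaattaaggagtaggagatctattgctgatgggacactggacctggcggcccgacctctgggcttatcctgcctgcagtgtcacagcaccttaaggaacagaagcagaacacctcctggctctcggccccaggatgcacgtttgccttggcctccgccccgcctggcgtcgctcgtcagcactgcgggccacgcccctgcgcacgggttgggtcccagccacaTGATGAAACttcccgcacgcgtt
Hmgcs1: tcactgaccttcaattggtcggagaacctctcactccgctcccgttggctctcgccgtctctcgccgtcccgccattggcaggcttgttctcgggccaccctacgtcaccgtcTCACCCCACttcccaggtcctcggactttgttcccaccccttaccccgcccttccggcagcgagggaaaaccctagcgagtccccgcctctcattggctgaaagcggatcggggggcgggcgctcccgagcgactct
The motif in Asns ended 14 bases before the start and that in Hmgcs1 128 bases before it. Hmgcs1, HMG-CoA synthase, was at 199, 321 and 346 CPM in untreated, day 3 and AREG parietal cells.

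Another set of genes was higher in other cells than in parietal cells. Among these the naming rule gave Akr1b8, Ptgr1, Gstm1, Chia1 and Spag6l as highest and Pga5, Sprr2a1, Sprr2a2, Sprr2a3 and Mucl3 as lowest at day 3. The 3 Sprr2a genes are near-identical copies, so their reads may be split between them. Pga5, a pepsinogen, was at 390, 29.8 and 17.9 CPM in parietal and 736, 70.4 and 61.6 in other cells. The chief cell product Chia1, an acidic chitinase, was at 212, 501 and 623 CPM in parietal and 4878, 4244 and 1874 in other cells. Its log2 ratio of 1.24 for day 3 turned to -0.092 without cells that had more pit, neck or chief than Atp4 UMIs. Clps, pancreatic colipase, which mouse chief cells make, was at 7931, 12180 and 14672 CPM in parietal and 56557, 33571 and 28938 in other cells; its log2 ratio of 0.62 stayed above 0 under 13 other settings and ranged from 0.12 to 1.35.

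Adding AREG left the parietal transcriptome close to that of day 3 alone. Only 4 of 5335 measured genes (0.075%) were at least 2-fold higher and 5 (0.0937%) at least 2-fold lower with AREG than without, and the median log2 ratio was -0.02. The 4 were Cul3, Cbfa2t2, Chga and the gene model Gm47854, and the 5 were Gkn3, Muc6, Tafa2 and the gene models Gm11335 and Gm50024. Some of these fall outside the naming rule and were named after their values were seen. Chga belongs to the list of 6 endocrine cell markers. Their sum in parietal cells was lower with AREG, at 267 CPM against 419 at day 3, and in other cells it was 2813 against 2627. Cul3, Cbfa2t2, Gm47854 and Tafa2 were much higher in free RNA of a library than in its parietal cells. Cul3 was at 55.1, 57.6 and 200 CPM in parietal cells and 23.8, 46.3 and 1479 CPM in free RNA, and Tafa2 at 49.5, 107 and 3.38 CPM against 1138, 4616 and 4.93. With AREG, Gm47854 was at 354 CPM in parietal cells and 5300 in free RNA. Gkn3 and Muc6, neck cell genes, were at 158 and 70.9 CPM at day 3 and at 47.9 and 29.1 with AREG, while other cells had 862 and 325 at day 3 and 418 and 165 with AREG. The sum of the 4 neck markers in other cells went the other way, at 6050 CPM at day 3 and 9221 with AREG. Among cells of 1500 to 6000 UMIs, 9 genes were higher and 9 lower by that measure, and the log2 ratios of Gkn3 and Muc6, -1.70 and -1.25 over all parietal cells, were -0.99 and -0.38.

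Of the genes highest with AREG by the naming rule, all but Cul3 were less than 2-fold higher than at day 3 alone. Among the 10 highest by the naming rule were Cul3, Zfp36, Ddit4, Ccnb1ip1, Gadd45g, Pim3, Rsrp1, Atf3 and Mroh5. Zfp36, an mRNA decay factor, was at 61.3 CPM at day 3 and 92.3 with AREG, a log2 ratio of 0.58 (0.48 to 0.71). Atf3, a stress transcription factor, was at 90.6 and 120 CPM. In the immediate early list 10 of 12 measured genes lay above 0 for AREG over day 3, with a median of 0.20 where all measured genes had -0.02, and none was past 2-fold. Fos was at 188 and 263 CPM and Egr1 at 125 and 179. The untreated library, which had no AREG, had Fos at 364, Egr1 at 146, Zfp36 at 81.0 and Atf3 at 110 CPM, and other cells also had more Fos with AREG, at 501 against 309. The part of the other cells in these parietal values was not tested.

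Genes of the EGF receptor pathway differed little with AREG. Egfr was at 4.01 CPM at day 3 and 3.48 with AREG, Erbb2 at 10.8 and 10.99, and Erbb3 at 9.90 and 11.1, all below the level for measured genes. The measured members of that list were Adam10, a sheddase, Errfi1, an inhibitor of the receptor, and Lrig1, another; Errfi1 was at 22.3 CPM in untreated, 40.9 at day 3 and 44.5 with AREG, and Lrig1 at 37.5, 75.2 and 71.8. All 3 lay above 0 for day 3 over untreated, with a median of 0.85 where all measured genes had 0.18. Their median for AREG over day 3 was -0.04. Of 15 genes of ERK feedback and targets 4 were measured. Dusp6, an ERK phosphatase, was at 59.7, 63.1 and 69.6 CPM and Phlda1 at 174, 172 and 216. The lowest with AREG by the naming rule were Tafa2, Taco1, Tmem63c, Wdr89, Cdkn1a, Nfib, Tbc1d2b, Spidr, Bc1 and Tecpr2. Taco1, a translational activator of mitochondria, was at 55.1, 179 and 95.4 CPM. Cdkn1a, the cell cycle inhibitor p21, was at 455, 216 and 152 CPM, the AREG library lying below day 3 with a log2 ratio of -0.51 (-0.58 to -0.44).

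Compared directly with untreated cells, AREG parietal cells had 173 genes (3.24%) at least 2-fold higher and 131 (2.46%) at least 2-fold lower, or 107 and 196 after centring on the median of 0.17. This comparison shares its untreated cells with that of day 3 and its AREG cells with that of AREG over day 3, so the 3 are not independent and only their values are set side by side. Hamp2 had a log2 ratio of -3.85 at day 3 and -4.14 with AREG over untreated, Kcne1 -3.58 and -4.07, and Apoa1 -3.23 and -3.63. Idi1 had 1.68 and 1.97, and Tfrc 1.33 and 1.57. The median over all 17 measured acid secretion genes, Atp4a and Atp4b among them, was -0.01 and -0.09.

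Parietal cells of a library were not uniform. Each library's cells were split into 3 equal groups by Atp4 score, with Atp4a and Atp4b left out of the totals; these differences within a library follow from the rule's own measure and are a description. Tnni3 was at 924, 1656 and 1705 CPM in the low, middle and high group of the untreated library, 536, 1467 and 1626 at day 3, and 513, 1279 and 1570 with AREG. Apoa1 was at 8433, 18538 and 20908 CPM in the untreated groups and at 329, 1473 and 2727 at day 3, so the day 3 high group lay below the untreated low group. Hamp2 had the same order, at 865, 2107 and 2447 CPM untreated and 32.0, 110 and 189 at day 3. Esrrg, by contrast, was higher in each day 3 group, at 343, 464 and 407 CPM, than in any untreated group, at 164, 260 and 272.

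The low group held more RNA of other classes. The proliferation markers summed to 192 CPM in its untreated cells, 338 at day 3 and 186 with AREG, against 6.14, 9.75 and 14.4 in the high group. Neck markers were at 10793, 4556 and 2604 CPM in the low and 443, 219 and 305 in the high group. Median depth in the low group was 1795, 1774 and 1978 UMIs, and in the high group 1738.5, 5628 and 4454, so at day 3 the shallow cells were those of low score. After thinning to 500 UMIs, 0.179%, 0.506% and 0.587% of all parietal cells had at least 2 UMIs of proliferation markers, against 1.93%, 1.19% and 2.39% of other cells; the unthinned shares were 2.71%, 4.65% and 3.94% against 11.5%, 4.44% and 10.1%. Clps had another shape: at day 3 it was at 20331, 7190 and 11743 CPM from low to high, and with AREG at 26102, 7913 and 12971, where the untreated groups had 15590, 3319 and 2851. The high group of both day 3 libraries thus had more Clps than the middle group, and the plot by score group shows this bend only for those libraries.

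**Figure D5:**
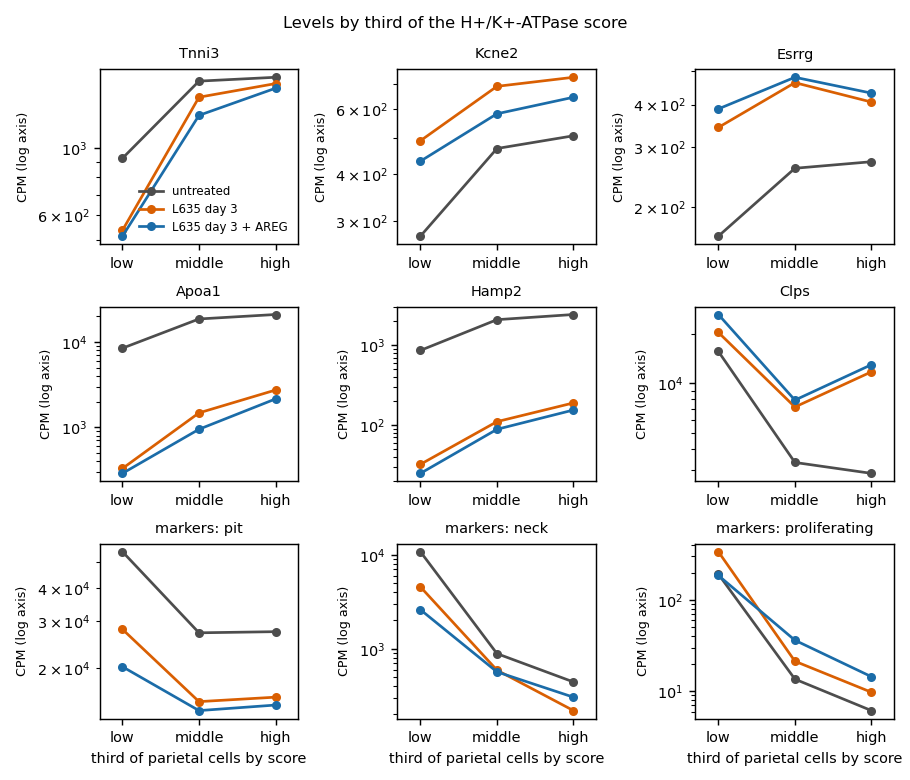
Levels in CPM, on log axes that do not start at 0 and differ between panels, of 6 genes and 3 marker lists in parietal cells of low, middle and high Atp4 score (3 equal groups per library), for the 3 libraries, with Atp4a and Atp4b left out of the totals. Apoa1 and Hamp2 lie lower and Esrrg higher in each group of the day 3 libraries than in the same group of the untreated one, and Clps is lowest in the middle group of both day 3 libraries.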

How the data were processed

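The authors deposited unfiltered matrices of raw UMI counts per barcode and gene, 1 for each PIPseq T20 3' library of dissociated gastric corpus, per the labels' protocols and the file layout. Per the submitters' processing notes the genome build was mm39. Aligner and counter: not given in the sources used here. Counts of the cells of a library were summed and divided by their total (CPM, per 1000000), and libraries were compared as the log2 ratio of CPM plus 1. Genes were measured at 20 CPM or more in parietal cells of any library, and 2-fold marks a difference. Intervals are exact (Poisson, Clopper-Pearson, and binomial for a ratio of counts) at 95%. Named genes were the 10 furthest apart in each direction among those at least as high in parietal as in other cells, the 5 furthest among the rest, and the 15 highest markers. Whether separate mice or cultures lie behind a library is not given. The scripts were tested on simulated data. The members and gene lists were chosen with earlier results of these data known. Some genes that met the naming rule or belong to a list are not reported here.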

Additional observations from a re-analysis of the deposited data

Results flagged for a closer look

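Barcodes with fewer than 50 UMIs, which entered no comparison, held a high level of Cul3, Cbfa2t2 and the gene model Gm47854 in the AREG library, far above the untreated control. Cul3, a ubiquitin ligase scaffold, was at 1479 CPM in free RNA of the AREG library, 23.8 in the untreated one and 46.3 at day 3, and at 200 CPM in AREG parietal cells. Cbfa2t2, a transcriptional corepressor, was at 1152 CPM in free RNA of the AREG library, 9.51 in the untreated one and 14.1 at day 3, and at 23.7 CPM in AREG parietal cells. Gm47854 was at 5300 CPM there, 0.297 in the untreated free RNA and 0.248 at day 3, and at 354 CPM in AREG parietal cells. With free RNA subtracted, 2 genes rather than 4 were at least 2-fold higher with AREG than at day 3 alone.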

How the results depend on the processing

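With 1 library per group no difference has a replicate check, parietal cells of low score cannot be separated from other cells with free pump RNA, and depth limits genes under about 20 CPM. No paired analysis was possible because each group is 1 library. The untreated share of 32.2% was 34.7%, 30.4% and 26.2% at scores of at least 25, 100 and 200, 30.4% with at least 1000 UMIs, 24.3% with at most 20% mitochondrial UMIs and 34.7% with no such limit. The day 3 share of 27.2% was 31.4%, 24.1% and 16.8% at those scores and 21.4% at 20% mitochondrial UMIs. For the parietal cell share of cells, L635 day 3 + AREG, 27.7% was 31.8%, 25.04% and 18.0%, then 28.9% with at least 1000 UMIs and 21.0% at 20%. For day 3 over untreated, the 186 higher genes were 96 with a pseudocount of 10, 84 at 50 CPM, 580 with no filter, 121 centred, 417 with equal weight per cell and 632 among cells of 1500 to 6000 UMIs. The 122 lower genes were 78 at 50 CPM, 260 with no filter, 187 centred and 278 at 1500 to 6000 UMIs. For AREG over day 3, the 4 higher genes were 2 with a pseudocount of 10, 12 with no filter, 2 with free RNA subtracted and 9 at 1500 to 6000 UMIs. The 5 lower genes were 33 with no filter, 8 without abundant genes, 23 with equal weight per cell and 9 at 1500 to 6000 UMIs. For AREG over untreated, the 173 higher genes were 79 with a pseudocount of 10, 79 at 50 CPM, 493 with no filter, 107 centred, 305 with equal weight per cell and 428 at 1500 to 6000 UMIs. The 131 lower genes were 85 at 50 CPM, 303 with no filter and 204 at 1500 to 6000 UMIs. Without cells richer in other-class than Atp4 UMIs, Chia1 turned to -0.092 for day 3 and -0.19 for AREG over untreated. Of 30 named genes past 2-fold for day 3 over untreated, 29 kept their direction in all 14 alternatives and 28 stayed past 2-fold; for AREG over untreated these were 29 and 28 of 30. The 1500 to 6000 UMI range and a score range of 200 to 400 were chosen after seeing the data. The causes were not tested.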

Other observations

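Of 18 measured proteasome genes, 16 lay above 0 for day 3 over untreated, with a median log2 ratio of 0.37 against 0.18 for all measured genes. Past 2-fold were 0 of them, where 3.49% of all measured genes were at least 2-fold higher and 2.29% at least 2-fold lower. Of 16 genes of the unfolded protein response 9 lay below 0, with a median of -0.056, which was 0.13 without cells richer in pit, neck or chief than Atp4 UMIs, and 0 past 2-fold. Genes of MHC class I had 5 measured members with a median of 0.54, and H2-K1 was at 136, 254 and 278 CPM in untreated, day 3 and AREG parietal cells. Of 9 measured injury and metaplasia genes 7 lay below 0, with a median of -0.61, but the median was 0.099 among cells with a score of at least 200. Their summed level was 3052, 2115 and 2144 CPM in parietal cells against 8988, 6375 and 7000 in other cells. Clu, a secreted chaperone, was at 774, 548 and 581 CPM, and Krt7, a ductal keratin and the member past 2-fold, at 12.7, 31.1 and 29.4 CPM.

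The endothelial markers Plvap and Cdh5 were higher in parietal cells than in other cells. The list of 4 endothelial markers summed to 83.9, 68.6 and 64.3 CPM in parietal cells and to 15.7, 40.7 and 21.8 CPM in other cells. After thinning to 500 UMIs, 3.42%, 2.25% and 2.57% of parietal cells had a UMI of Cdh5, against 0.658%, 1.14% and 0.835% of other cells; the unthinned shares were 13.9%, 25.5% and 19.2% against 5.03%, 7.64% and 4.42%.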
